A study of Mus musculus with 13 samples.

Results

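The 6 genes described here encode the GABA-B receptor and its 4 auxiliary subunits: the receptor subunits Gabbr1 and Gabbr2, and the KCTD proteins Kctd8, Kctd12, Kctd12b and Kctd16. They were taken by name from knowledge of the receptor complex, 6 of the 23857 gene symbols listed for every immunopurified library. The choice was made with earlier results of these data known. All 6 passed the filter on low counts in the comparison of genotypes. The material was medial habenula of adult mice over 8 weeks of age carrying the Chat-TRAP DW167 transgene, which puts a GFP tag on ribosomes of cholinergic cells. Anti-GFP beads pull down these polysomes, so an immunopurified (IP) library reports ribosome-bound mRNA, enriched for those cells, while an input library reports total RNA of the homogenate. There were 6 wild-type IP libraries (Chat-TRAP), 6 knockout IP libraries (Gpr151-KO::Chat-TRAP) and 1 wild-type input library. Every mouse, controls included, carried the transgene, which comes from a single line, DW167. The labels name no deleted allele, no sex and no treatment. The deposited tables' own names do speak of saline for most IP libraries, and the name of the input's table adds saccharin. A difference in treatment between the IP and the input animals therefore cannot be told apart from the IP itself in any ratio, balance or share set against the input. Libraries 852 and 855 pooled 3 mice and the others 4, so replicates are separate pools of animals. Transcripts of cells without the transgene can reach an IP library as carry-over.

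GABA-B receptors are obligate heterodimers at the cell surface. GABA-B1, the product of Gabbr1, binds GABA, and GABA-B2, the product of Gabbr2, couples to Gi/o proteins. Released G beta gamma subunits open GIRK potassium channels and inhibit presynaptic calcium channels. KCTD proteins bind the tail of GABA-B2 and the G beta gamma subunits. KCTD12 and KCTD12b speed desensitization of the potassium current, whereas KCTD8 and KCTD16 give largely sustained responses. Cholinergic neurons of the mouse medial habenula project to the interpeduncular nucleus, where presynaptic GABA-B receptors are known for raising transmitter release rather than lowering it.

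Gene counts ran from 28375912 to 64388596 per IP library and came to 54701790 in the input. At these depths 3 counts equal 0.0466 to 0.106 CPM (counts scaled to a library's gene total), and no member was at 0 in any library. The targeted gene, Gpr151, was at 358 to 539 CPM in wild-type IP, 105 to 197 in knockout IP and 53.4 in the input, so its counts were lower but not absent in every knockout library. Of 13 medial habenula markers above 5 CPM, 11 were at least 2 times above the input in all 6 wild-type IP libraries, Chat, Chrna3 and Pou4f1 among them. The exceptions were Slc17a6 and Calb2. Non-neuronal markers, 43 in all and scored by their mean log2(CPM + 1), stood highest in wild-type library 1091 (3.36) and knockout libraries 1099 (3.96) and 1102 (3.64). The score was 1.78 to 2.82 in the other IP libraries and 4.48 in the input. Genotype fold changes of all 6 members are given below with and without those 3 libraries. The correlations, balances and shares include them throughout.

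The 4 KCTD genes are paralogs, so it matters whether short reads can tell them apart. Their longest coding sequences were 64.4% to 73.2% identical in pairwise alignment, and the longest identical run between any pair was 26 bases. No 50-base stretch of any member's annotated transcripts (GENCODE M21) occurred in a transcript of another member, on either strand. Kctd12 lies at chr14:102976581-102982637 (minus strand, 1 exon) and Kctd12b at chrX:153685154-153696391 (minus strand, 3 exons), both on GRCm38, the mm10 build named in the submitters' processing notes. Shown here is the most alike 75-base stretch of their coding sequences, with the 16 bases that differ in capitals. It spans coding bases 748 to 822 of Kctd12 and 649 to 723 of Kctd12b.
Kctd12: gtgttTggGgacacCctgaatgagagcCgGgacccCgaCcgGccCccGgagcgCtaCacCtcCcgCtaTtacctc
Kctd12b: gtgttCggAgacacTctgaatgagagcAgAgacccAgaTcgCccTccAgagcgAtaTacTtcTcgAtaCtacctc
Even in this stretch 59 of 75 bases (78.7%) were shared, so a read of this length would carry 16 differences between the 2 genes. Kctd12 has another source of doubt. Of its 6057 exon bases, 3889 overlap other genes, nearly all of them Gm26778 on the opposite strand. Gm26778 is listed for the input alone, at 0 counts. No source used here says if counting took strand into account. Without strand, reads over that overlap would have been set aside as ambiguous in the input and counted in the IP libraries. Less of Kctd16 and Kctd8 overlaps opposite-strand genes: 360 of 3477 exon bases (AC098707.1) and 106 of 3373 (Gm24368).

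Of the other members, Gabbr1 lies at chr17:37045966-37075067 (plus strand), Gabbr2 at chr4:46662305-46991873 (minus strand) and Kctd8 at chr5:69109285-69341679 (minus strand). Promoter windows of 250 bases before to 50 after the RefSeq gene start (GRCm38.p6) were at hand for 4 members, Kctd12 being the fourth. That start equals the gene model's for Gabbr1 and Kctd12, lies 159 bases inside the gene model for Gabbr2 and 30 bases before it for Kctd8. They are shown for the receptor pair and for Kctd8, the most abundant KCTD mRNA in the IP. The windows are chr17:37045716-37046015 (plus strand), chr4:46991665-46991964 (minus strand) and chr5:69341660-69341959 (minus strand). Capitals mark the GC box GGGCGG and the cyclic AMP response element TGACGTCA, each on either strand.
Gabbr1: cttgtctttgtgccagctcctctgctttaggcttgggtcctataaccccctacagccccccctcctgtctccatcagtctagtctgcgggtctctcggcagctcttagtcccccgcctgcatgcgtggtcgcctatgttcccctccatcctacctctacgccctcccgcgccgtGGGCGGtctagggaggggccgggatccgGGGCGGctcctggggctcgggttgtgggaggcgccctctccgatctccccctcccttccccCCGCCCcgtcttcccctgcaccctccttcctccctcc
Gabbr2: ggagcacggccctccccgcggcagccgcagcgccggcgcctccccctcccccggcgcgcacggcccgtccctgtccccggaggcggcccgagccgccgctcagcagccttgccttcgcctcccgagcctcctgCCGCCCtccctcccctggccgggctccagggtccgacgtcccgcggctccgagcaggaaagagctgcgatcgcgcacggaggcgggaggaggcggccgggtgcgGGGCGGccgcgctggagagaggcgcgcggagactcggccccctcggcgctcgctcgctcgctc
Kctd8: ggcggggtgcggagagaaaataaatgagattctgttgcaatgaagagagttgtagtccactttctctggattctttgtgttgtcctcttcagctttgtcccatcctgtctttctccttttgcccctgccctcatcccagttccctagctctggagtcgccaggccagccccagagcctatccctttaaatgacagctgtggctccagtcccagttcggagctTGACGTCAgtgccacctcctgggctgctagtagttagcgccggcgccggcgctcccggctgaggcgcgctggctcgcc
The Kctd8 window held 1 full cyclic AMP response element, 20 bases before the RefSeq start and 50 before that of the gene model, and no GC box. That element was found in 1.79% of the 32851 promoter windows of this length. The Gabbr1 and Gabbr2 windows held 3 and 2 GC boxes, and that of Kctd12 held 7, against at least 1 in 35.7% of all windows. The NBRE letters AAAGGTCA, searched for NR4A-family receptors, and the POU4F-type letters ATAATTAAT were in none of the 4 windows, against 1.51% and 0.274% of all. GC content was 67.3% for Gabbr1, 80.3% for Gabbr2, 78% for Kctd12 and 57.7% for Kctd8, with a median of 52.7% over all windows. These matches describe letters only, and binding was not measured.

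Both receptor subunits were abundant in the ribosome-bound RNA. Gabbr1 ranged from 3546 to 6659 CPM in wild-type IP (median 5544), from 2842 to 7270 in knockout IP (median 5432), and was at 950.7 in the input, with a 95% Poisson interval of 942.5 to 958.9. Per kilobase of exon, it ranked 6 to 22 among 19628 protein-coding genes in every IP library, and 170 in the input. The wild-type and knockout ranges overlapped, and within each genotype the lowest values were in libraries 1091, 1099 and 1102. Gabbr2 ranged from 1112 to 1484 CPM in wild-type IP (median 1353), from 809.2 to 1648 in knockout IP (median 1360), and was at 619.6 in the input. Its rank per kilobase was 86 to 167 in the IP libraries and 244 in the input. The Gabbr2 groups overlapped too, and library 1099 was the lowest of the 12.

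**Figure D1:**
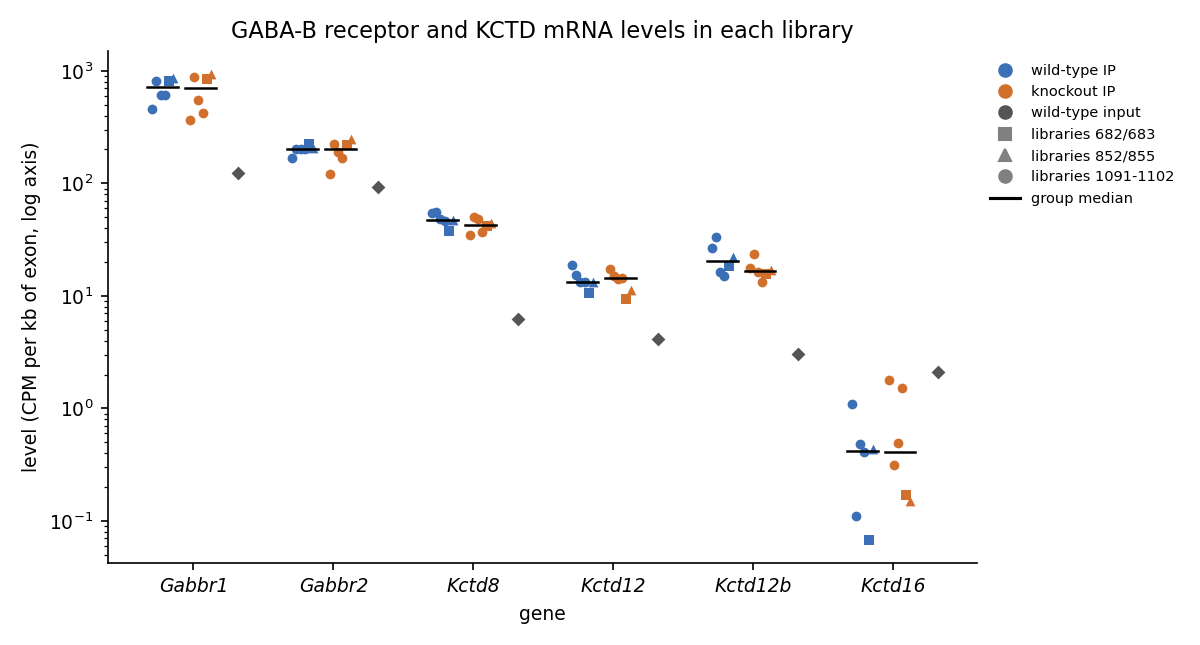
Level of each gene in CPM per kilobase of exon (log axis), 1 point per library, with a line at the median of each IP group and a diamond for the single input library. Gabbr1 is highest and Kctd16 lowest in every library, and Kctd16 is the only member whose input value lies above all 12 IP values.

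The KCTD mRNAs were far lower. Kctd8 ranged from 126.3 to 188.5 CPM in wild-type IP (median 160.2) and from 116.6 to 169.2 in knockout IP (median 144.8), against 20.99 in the input (Poisson interval 19.79 to 22.24). Knockout libraries 1099 and 1102 were the only ones below all wild-type libraries. Kctd12b ranged from 74.43 to 162.2 CPM in wild-type IP (median 99.21) and from 65.79 to 115.3 in knockout IP (median 81.65), against 15.1 in the input (14.09 to 16.17). Here wild-type libraries 1091 and 1092 were above every knockout library, and the other 4 lay within the knockout range. Kctd12 ranged from 63.74 to 113.5 CPM in wild-type IP (median 80.34) and from 56.93 to 105.4 in knockout IP (median 87.07), against 25.15 in the input (23.84 to 26.52). Unlike Gabbr1 and Gabbr2, Kctd12 was highest in libraries 1091 and 1099. Kctd16 was the lowest member in the IP: 0.238 to 3.85 CPM in wild type (median 1.47), 0.521 to 6.22 in knockout (median 1.42), and 7.33 in the input (6.63 to 8.08). Those values rest on 10 to 310 counts per IP library and 401 in the input, and the 3 highest IP values belong to libraries 1099, 1102 and 1091. The Poisson intervals cover counting error only.

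Levels of different genes were compared per kilobase of exon within each library. The order in wild-type IP was Gabbr1, Gabbr2, Kctd8, Kctd12b, Kctd12, Kctd16. Mean differences in log2 level between neighbours were 1.77 ± 0.25 (SD) for Gabbr1 over Gabbr2, 2.06 ± 0.32 for Gabbr2 over Kctd8, 1.18 ± 0.33 for Kctd8 over Kctd12b, 0.61 ± 0.34 for Kctd12b over Kctd12 and 5.53 ± 1.33 for Kctd12 over Kctd16. Each difference had the same sign in 6 of 6 libraries. Its exact two-sided sign-flip p was 0.0312, the smallest that 6 libraries allow (adjusted over the 5 pairs, 0.0312). The pairs were neighbours in an order taken from these same libraries. That p thus speaks to agreement between libraries and is no independent test of the order. The knockout IP libraries gave the same order by their means. There Kctd12b exceeded Kctd12 in 5 of 6 libraries, by 0.34 ± 0.35, with an exact p of 0.0938 (adjusted 0.0938), so these neighbours were not separated beyond their spread.

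Relative to the input, 4 of the 6 genes were at least 2 times higher in all 6 wild-type IP libraries: Gabbr1, Kctd8, Kctd12 and Kctd12b. Over all 11131 genes above 5 CPM, 5.83% met that rule and 8.33% met the reverse rule, at least 2 times lower in all 6, which no member met. Values are log2 ratios of IP to input after adding 1 CPM, and the single input library gives no replicate error of its own. The gene totals behind CPM also differ in make-up. The input lists 37328 gene symbols, without Rn45s, and the IP libraries list 32532 or 24454, with it. A fit in edgeR that lends the input the spread of the IP libraries gave log2 differences of 2.98 for Kctd8 and 2.86 for Kctd12b. It gave 2.54 for Gabbr1, 1.78 for Kctd12, 1.14 for Gabbr2 and -2.27 for Kctd16. With 1 input library, a p from that fit would rest on a borrowed spread and is not given. Kctd8 had the highest median, 2.87 (range 2.53 to 3.11), followed by Kctd12b at 2.63 (2.23 to 3.34) and Gabbr1 at 2.53 (1.90 to 2.81). Kctd12 followed at 1.64 (1.31 to 2.13). Gabbr2 had 1.13 (0.84 to 1.26) and passed 2 times in 5 of 6 libraries, all but 1091. Its median was 0.95 (0.58 to 1.17) with library sizes over shared symbols and 1.25 (0.88 to 1.45) without Rn45s. The Kctd16 ratio was -1.76 (-2.75 to -0.78), at least 2 times below the input in 5 of 6 libraries, again all but 1091. The median was 2.08 over the 6 genes and 0.11 over all 11131. If the input count of Kctd12 is scaled up for the exon bases shared with Gm26778, its median ratio becomes 0.24 (-0.08 to 0.74) and the call is lost. That scaling assumes counting without strand, and 3.98% of input alignments were set aside as ambiguous against 0.581% to 1.36% in the IP libraries.

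**Figure D2:**
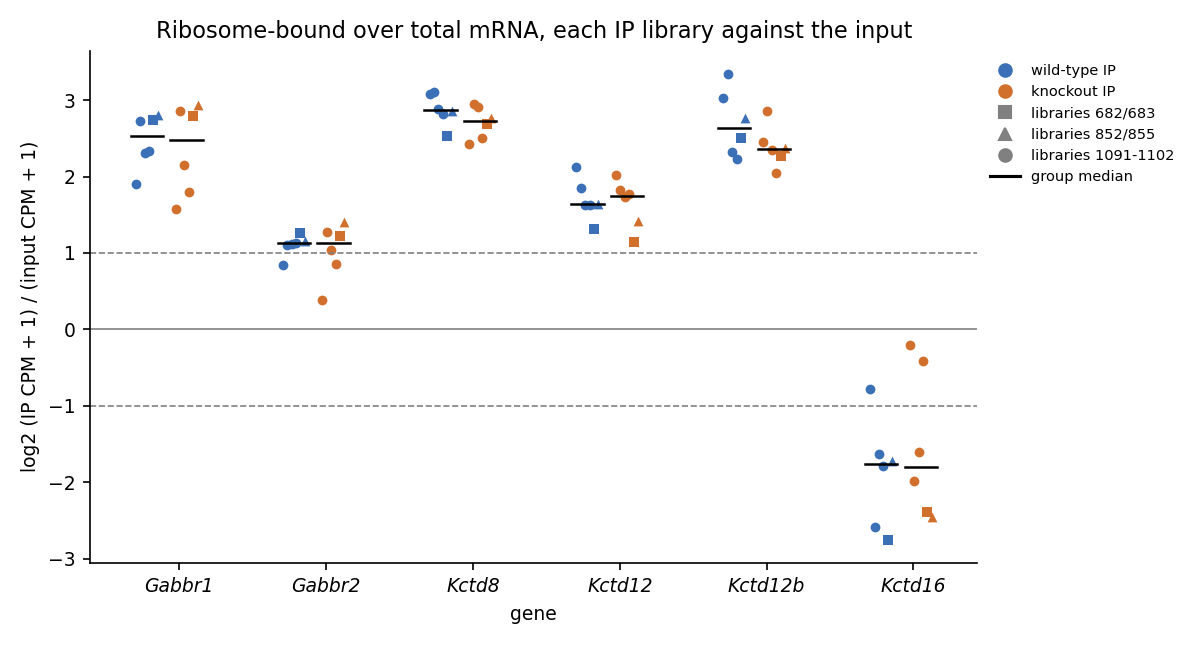
Log2 ratio of each IP library to the single input library after adding 1 CPM, with group medians as lines and dashed lines at 2 times higher and 2 times lower. Kctd8, Kctd12b, Gabbr1 and Kctd12 lie above the upper line in all 12 libraries, Gabbr2 straddles it, and Kctd16 is below 0 throughout.

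The balance between the receptor subunits differed between the IP and the input. Per kilobase, Gabbr1 exceeded Gabbr2 by 2.75 to 4.16 times in wild-type IP (median 3.36) and 2.53 to 3.96 times in knockout IP (median 3.41), against 1.32 times in the input. All 12 IP libraries were above the input, and the genotypes overlapped. Gabbr2 exceeded the summed KCTD level by 1.65 to 3.34 times in wild-type IP and 1.69 to 3.4 times in knockout IP, against 5.95 times in the input. Summing Kctd16 with a row of an older symbol, 2900055J20Rik, described below, would make that input value 4.64. The input value also carries the doubt about Kctd12 given above.

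Within the KCTD sum, Kctd8 made up 53.5% to 61.6% per kilobase in wild-type IP (median 56.5%) and 48.4% to 62.3% in knockout IP (58.6%). Kctd12b gave 20.3% to 31.6% in wild type (26.5%) and 20.2% to 26.4% in knockout (23.3%). Kctd12 gave 14.7% to 18.6% (16.6%) and 14.1% to 24.3% (17.4%). Kctd16 gave 0.103% to 1.1% (0.536%) and 0.206% to 2.5% (0.49%). In the input the shares were 26.7% for Kctd12, 19.8% for Kctd12b and 13.5% for Kctd16, and the rest was Kctd8. The genotypes overlapped for every share. Knockout libraries 1099 and 1102 had the highest Kctd12 shares, 24.3% and 21.9%, and the highest Kctd16 shares, 2.5% and 2.29%. The input shares carry the doubt about Kctd12 given above, and they turn on how Kctd16 is counted. A separate row, 2900055J20Rik, carries an older symbol of Kctd16 in the RefSeq table. Summed with that row, over the Kctd16 exon length, the Kctd16 share would be 0.545% to 2.29% in wild-type IP (median 1.21%), 0.808% to 4.8% in knockout IP (1.14%) and 32.6% in the input. The input order would then turn, with Kctd16 at 6.52 CPM per kilobase above Kctd8 at 6.22.

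**Figure D3:**
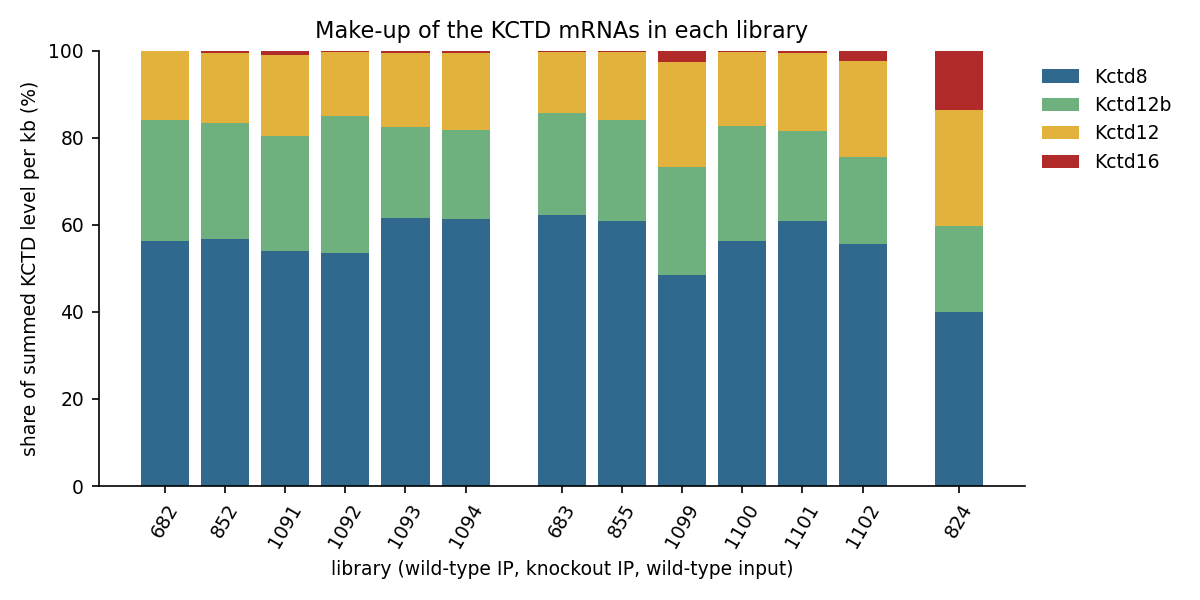
Share of each KCTD gene in the summed KCTD level per kilobase, 1 bar per library. Kctd8 is the largest part of every bar, and Kctd16, here without the row 2900055J20Rik, is a thin band in the IP bars and 13.5% of the input bar.

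Kctd16 moved with the non-neuronal markers. It was 3.85, 6.22 and 5.28 CPM in libraries 1091, 1099 and 1102 and at most 1.73 in the other 9 IP libraries, and it was highest in the input. Gabbr1 ran the other way, at 3546, 2842 and 3305 CPM in the same 3 libraries and at least 4244 in the others. Summed astrocyte markers were 960, 1670 and 987.8 CPM in those 3 libraries, 134.9 to 473.7 in the rest, and 1774 in the input. Summed GABAergic neuron markers were 151.2, 305.1 and 249.6 CPM, against 15.05 to 162 in the rest and 521.5 in the input. Fewer cells of a type and less RNA per cell cannot be told apart in such bulk libraries. The part of other cells in the Kctd16 level was not tested. The row 2900055J20Rik had 14 to 299 counts in the IP and 839 in the input. Summed with it, Kctd16 was at 1.99 to 8.14 CPM in wild-type IP (median 3.03), 2.52 to 12.2 in knockout IP (median 2.93) and 22.7 in the input. The row's median log2 ratio to input was -2.47 (-3.45 to -1.63), at least 2 times lower in 6 of 6 wild-type libraries, and the summed ratio was -2.55.

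**Figure D4:**
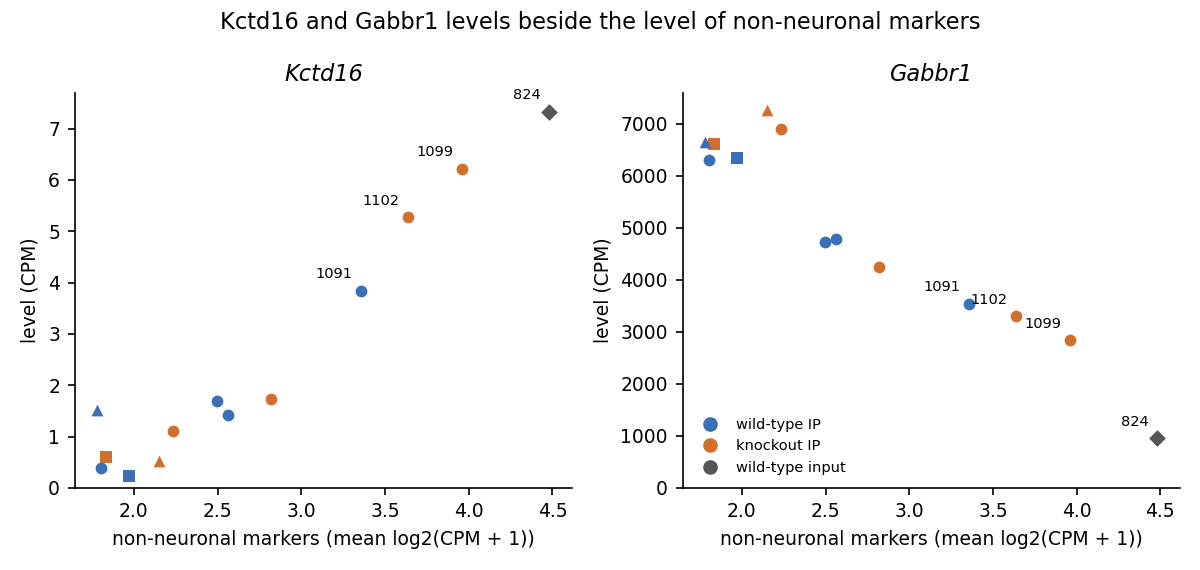
CPM of Kctd16 (left) and Gabbr1 (right) in each of the 13 libraries against the score of 43 non-neuronal markers (their mean log2(CPM + 1)), with both vertical axes from 0. Libraries 1091, 1099 and 1102 and the input 824 lie to the right, with the highest Kctd16 and the lowest Gabbr1 values.

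Knockout of Gpr151, an orphan receptor of habenular neurons, was compared with wild type in the IP libraries, and none of the 6 genes passed the test. In edgeR's quasi-likelihood test with library set as a term, 2 of 14317 genes (0.0140%) passed an adjusted p of 0.05, and 438 had an unadjusted p under 0.05. Gpr151 fell by 1.63 on the log2 scale (SE 0.17, edgeR adjusted p = 0.00592). Without library 683 its edgeR adjusted p was 0.0538 and 0 genes passed, 527 having an unadjusted p under 0.05. With the 8 later libraries alone it was 0.424, and again 0 genes passed, with 331 under an unadjusted p of 0.05. The medians over all genes tested and over the 6 members were 0.00 and -0.05. Log2 fold changes of knockout over wild type were -0.07 for Gabbr1 (95% interval -0.51 to 0.38), -0.04 for Gabbr2 (-0.33 to 0.26), -0.15 for Kctd8 (-0.41 to 0.11) and -0.03 for Kctd12 (-0.29 to 0.23). Kctd12b had -0.33 (-0.77 to 0.11), the smallest unadjusted p of the 6, 0.132 by edgeR. The Kctd16 value was 0.71 (-0.64 to 2.06). The edgeR adjusted p was 0.999 for each. These intervals leave room for changes of about the sizes at their ends, widest for Kctd16. Markers of other cells leaned towards higher values in the knockout. Fold changes were above 0 for 10 of 10 astrocyte genes (median 0.86), 10 of 10 oligodendrocyte genes (0.79) and 7 of 7 GABAergic genes (1.16). They were also above 0 for 6 of 6 oligodendrocyte precursor, 5 of 5 choroid or ependymal and 9 of 10 lateral habenula or thalamus genes. Signs were mixed for microglia (6 of 8, median 0.45) and endothelium (5 of 7, 0.36). None of these genes passed the adjusted threshold. Their part in the members' values was not tested beyond the fits below.

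Exact two-sided permutation tests of log2 CPM for single genes, 6 against 6, gave p = 0.68 for Gabbr1, 0.721 for Gabbr2, 0.175 for Kctd8, 0.801 for Kctd12, 0.175 for Kctd12b and 0.465 for Kctd16. The smallest p such a design allows is 0.00216. Within the 8 later libraries, 4 against 4, the exact p ran from 0.171 to 0.8, and the smallest possible is 0.0286. The 2 earlier sets hold 1 library per genotype each. There Kctd12b was lower in the knockout in both, by log2 differences of -0.23 and -0.39, whereas Kctd16 differed by 1.18 in the set of 682 and 683 and by -1.47 in that of 852 and 855. Fitted on these 4 libraries alone, Kctd12b had -0.32 (95% interval -0.57 to -0.06), with an unadjusted p of 0.0162 and an adjusted p of 0.963 by edgeR. It was the single member whose interval left out 0 in that fit. With 1 library per genotype in each set, that interval and p rest mostly on spread borrowed from other genes. Over all 13958 genes fitted there, 663 had an unadjusted p under 0.05 by edgeR. The interaction of genotype with earlier or later set called 0 genes by edgeR (325 at an unadjusted p under 0.05) and 2 by DESeq2. No member was among these genes. Without libraries 1091, 1099 and 1102 the Kctd16 fold change was 0.11 and with that marker score in the model -0.10, while Kctd12b gave -0.21 and -0.23. In the same 2 fits Kctd8 gave -0.0013 and -0.0675, and Kctd12 gave -0.0532 and -0.1029. The edgeR adjusted p was 0.999 to 1 in these fits. The Kctd16 fold change thus turned sign between fits. Kctd16 lies at chr18:40256962-40531630 (GRCm38, plus strand), 2.05 Mb from Gpr151 on the same chromosome. An effect of that position was not tested.

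**Figure D5:**
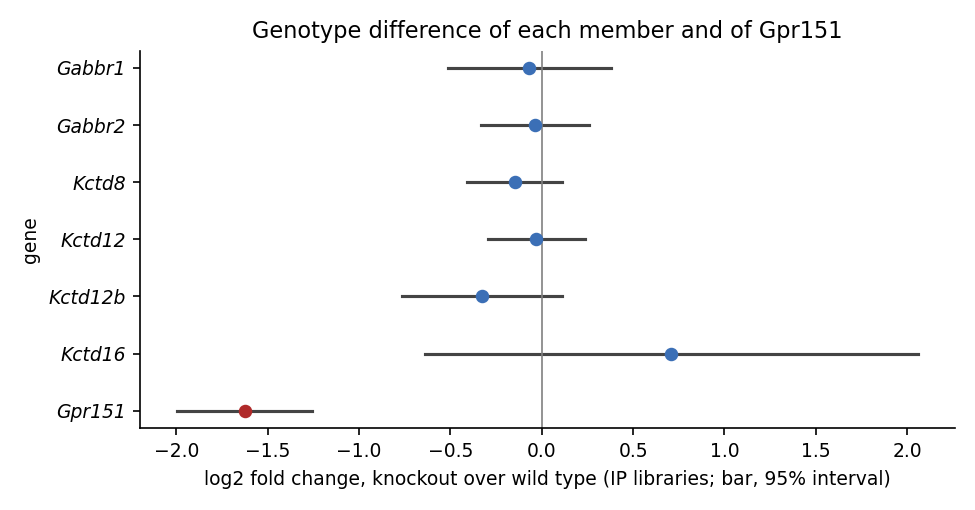
Log2 fold change of knockout over wild type for each member and for Gpr151, with the 95% interval from the edgeR fit on 12 IP libraries. All 6 member intervals cross 0, that of Kctd16 is the widest, and Gpr151 lies at -1.63.

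Other genes of the pathway were read from lists chosen by function. Beside the counts below, 5.83% of all 11131 genes above 5 CPM were enriched and 8.33% depleted by these rules. Of 4 GIRK subunit genes, the potassium channels that the receptor opens, none was enriched. The highest was Kcnj6 with a median log2 ratio to input of 0.23 (-0.06 to 0.76), and the lowest Kcnj3 with -1.85, all 6 libraries being below 0. Kcnj5 was at least 2 times lower in all 6 libraries. Of 11 calcium channel genes, 3 were enriched: Cacnb3, a beta subunit, at 3.85 (3.48 to 4.00), Cacna1e, the pore of R-type channels, at 2.28 (1.79 to 2.59), and Cacna2d2, an alpha2delta subunit, at 2.16 (1.94 to 2.23). Cacna1a and Cacna1b, the pores of P/Q-type and N-type channels, had -1.84 (-3.08 to -0.12) and -2.41 (-2.86 to -0.59). Cacna1e was at 993 ± 181 CPM in wild-type IP (SD, n = 6), Cacna1a at 17.9 ± 14.7 and Cacna1b at 25.4 ± 20. The lowest of this list was Cacna2d1 at -2.92. By genotype, none of the 15 GIRK and calcium channel genes passed the edgeR test, and the smallest unadjusted p was 0.0574, for Cacna2d3.

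Of 18 G protein genes above 5 CPM, 3 were enriched and 8 depleted by the same rules. The shares over all genes above 5 CPM were 5.83% and 8.33%. The enriched ones were Gng10 at 4.28 (3.66 to 4.87), Gng8 at 3.29 (1.84 to 4.41), both gamma subunits, and the beta subunit Gnb5 at 2.35 (1.99 to 2.67). Gnao1, the main Go alpha subunit of neurons, stood at 0.92 (0.86 to 0.98), and Gnai1 at -2.58. Gng4 at -3.46 (-4.32 to -1.26) and Gng11 at -3.46 (-3.74 to -2.99) had the lowest medians. Among 11 regulators of G protein signalling and receptor kinases, Rgs6 had 2.29 (1.10 to 2.58) and Rgs9 1.24 (1.02 to 1.95), both enriched, while Rgs7 and its anchor Rgs7bp, at -2.60, were depleted. Rgs6 had the smallest genotype p of that list, 0.0296 unadjusted, at a log2 fold change of -0.30 (edgeR adjusted p = 0.999).

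None of 10 receptor partner genes above 5 CPM was enriched. Pianp, whose product binds GABA-B1, was highest at 0.63 (0.26 to 1.08), and Ajap1, which also binds GABA-B1, was lowest at -2.36 (-2.71 to -1.29). Ajap1 had an unadjusted genotype p of 0.0075 and a log2 fold change of 0.89 (edgeR adjusted p = 0.999). Markers of other cells, likewise low in the IP, leaned the same way, as given above, and their part in this value was not tested. Of 15 further KCTD family genes that are not receptor subunits, Kctd10 was enriched at 1.46 (1.03 to 1.59) and Kctd6 depleted at -1.51 (-1.79 to -1.39), with a list median of -0.08. The smallest genotype p among them was 0.068, for Kctd4.

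Genes of GABA synthesis and vesicular loading were low in the IP. Gad1, Gad2 and Slc32a1, the vesicular GABA transporter, were each at least 2 times below the input in all 6 wild-type libraries. Gad2, a GABA-synthesizing enzyme, had a ratio of -3.59 (-5.14 to -1.65), and Aldh5a1, which acts in GABA breakdown, one of 0.02. Gad1 had an unadjusted genotype p of 0.0087 and a log2 fold change of 1.16 (edgeR adjusted p = 0.999). The same libraries differed in GABAergic markers as a whole: the list's summed level was 46.65 to 305.1 CPM in knockout and 15.05 to 151.2 in wild type, overlapping ranges. Fold changes were above 0 for 7 of 7 tested genes of that list (median 1.16), 6 of them with an unadjusted p under 0.05 and none past the adjusted threshold in edgeR. Its part in the Gad1 value was not tested.

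The genes whose levels followed each member most closely were ranked by Pearson r of log2 CPM over the 12 IP libraries, centred within library set. These are descriptions, and the libraries share their differences in depth and in other cells. Gabbr1 was most like Slc25a51 (0.996), Dctn6 (0.995) and Dpm2 (0.991), whose median log2 ratios to input were 0.38, 0.83 and 0.06. Gabbr2 was most like Pxylp1, Fhit and Cops7b, with r of 0.975 to 0.979 and ratios of 2.92, 1.30 and 0.01. For Kctd8 they were Pbx3 (0.978), Pknox2 (0.938) and Neurod1 (0.929), which encode transcription factors, and all 3 had median ratios to input above 2. Kctd12b was most like Dclk1 (0.984), Kcnd2 (0.975) and Cpne4 (0.972), with ratios of 1.78, 1.62 and 1.67. Kctd12 was most like 9330159F19Rik, Ift80 and Srpk2, whose median ratios to input lay between -0.41 and -0.01. Kctd16 was most like St3gal4, Pla2g3 and Fig4, with ratios of -2.75, -1.50 and 0.50. Among the members themselves, r was 0.86 for Gabbr1 with Gabbr2, 0.674 for Kctd8 with Kctd12b, 0.566 for Kctd12 with Kctd12b, -0.703 for Gabbr2 with Kctd12 and -0.882 for Gabbr1 with Kctd16.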

How the data were processed

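Each deposited table holds unnormalized read counts by gene symbol for 1 library, made by the authors with STAR 2.3.0e and HTSeq on mm10, per the submitters' processing notes. The annotation and strand settings are not known from these sources. Amplification used the Ovation V2 kit, per the labels' protocols. Summary lines without a gene were left out, and Rn45s held 2.25% to 12.6% of IP counts. CPM was the count over all gene counts of a library. Genotypes were compared over 12 IP libraries with edgeR 4.0.16 in R 4.3.3 (quasi-likelihood, TMM, filterByExpr, robust, library set as a term: 682 and 683; 852 and 855; 1091 to 1102), with Benjamini-Hochberg adjustment over 14317 genes; DESeq2 1.42.0 was an alternative. Single genes were tested by exact permutation (scipy 1.17.1). IP was set against input after adding 1 CPM, by a rule of 2 times in each of 6 wild-type libraries. Sequences were aligned with Biopython 1.88.

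The members and lists were chosen with earlier results of these data known. The genes named were the 6 members, Gpr151, the highest and lowest ratio to input and the smallest genotype p of each pathway list, and the 3 genes most like each member; Kcnj5, Cacna1e, Cacna2d2, Cacna1a, Cacna1b, Gng8, Gnb5, Gnao1, Gnai1, Gng11, Rgs7 and Rgs9 and the marker genes were named outside that rule. Alternatives covered scaling, filters, libraries left out, pseudocounts, gene length and the rows of doubtful annotation, the last chosen after seeing the data. Part of the GABA supply list is not reported here.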

Additional observations from a re-analysis of the deposited data

Results flagged for a closer look

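The ratio of Kctd8 to Kctd12 per kilobase was 2.91 in wild-type IP library 1091, apart from the other 5 wild-type libraries, the nearest of which was at 3.48. The gap took up 0.792 of the group's range. Of 28 groups of values checked, 1 was flagged, and chance flags about 1 group in 20, so a single flag is no more than chance gives. Library 1091 also had the highest non-neuronal marker score among wild-type IP libraries (3.36), and the part of other cells in this ratio was not tested.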

How the results depend on the processing

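No member passed the genotype test under any of 23 alternatives, and the IP over input direction of all 6 kept its sign in every alternative's median. Gpr151 fell by 1.49 to 1.82 on the log2 scale; its edgeR adjusted p was 0.424 with the 8 later libraries and 0.0538 without library 683. Genes called numbered 12 by DESeq2, 1 with the 1 CPM filter, 0 in the 8 later libraries (331 at an unadjusted p under 0.05, edgeR), 1 without libraries 1091, 1099 and 1102, and 0 to 2 leaving out 1 library, with 0 without library 683 (527 at an unadjusted p under 0.05).

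Small fold changes turned sign. With the 4 earlier libraries only, Gabbr1 was 0.086, Gabbr2 0.11, Kctd8 0.027 and Kctd16 -0.16. With the non-neuronal score as covariate, Gabbr1 was 0.17, Gabbr2 0.088 and Kctd16 -0.10. Without libraries 1091, 1099 and 1102, Gabbr1 was 0.076 and Gabbr2 0.066. With the 8 later libraries Kctd12 was 0.0395. Leaving out 1 library gave -0.25 to 0.049 for Gabbr1, -0.10 to 0.048 for Gabbr2, -0.10 to 0.031 for Kctd12, -0.42 to -0.17 for Kctd12b (the upper end without library 1092) and 0.35 to 1.12 for Kctd16. The causes were not tested.

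For IP over input, the count of depleted members rose from 0 to 1 (Kctd16) with a threshold of 1.5 times, with library sizes over shared symbols, with Kctd16 summed with 2900055J20Rik, and without library 1091 (range 0 to 1 leaving out 1 library). The edgeR fit with pooled spread assumes that the single input varies like the IP libraries. It gave -2.27 for Kctd16 and 1.14 to 2.98 for the other members. A pseudocount of 5 CPM gave -0.93 for Kctd16. Library sizes over shared symbols gave a median of 0.95 for Gabbr2, below 2 times. Of the 5 neighbour differences in level, 4 passed in knockout IP and 0 leaving out 1 wild-type library, since 5 libraries allow no exact p below 0.0625. By longest transcript, Gabbr1 over Gabbr2 was 4.27 and Kctd8 over Kctd12 was 4.19, with the order unchanged. No paired analysis was possible because the labels carry no replicate numbers that tie the 8 later libraries across genotypes. In the earlier 4, each set is 1 library per genotype, and library set stood in the main models. Depth limits Kctd16 most, at 10 to 310 counts per IP library.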
